A study of Mus musculus with 9 samples.

Results

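The adult globin genes Hbb-bs, Hbb-b1, Hbb-b2, Hba-a1 and Hba-a2 and the heme enzyme gene Alas2 were followed in each medial prefrontal cortex (mPFC) sample as a measure of the blood left in the tissue. These 6 genes were matched by symbol among the 24532 genes listed for every mouse. They were chosen by their FPKM in these same mice, so their levels, including which beta-globin gene carried the reads, are given as a description. RNA came from 9 mice, 1 library each and 3 per group. CT mice were wild-type and not restrained, WT_ST mice were wild-type and exposed to chronic restraint stress, and KO_ST mice were Fkbp5-/- and exposed to the same stress. All carried the label C57BL/6, given as C57BL/6J in the methods, and were male by the methods, restraint lasted 6 h a day for 3 weeks, and all groups went without food and water during those hours. The age was given as 8 weeks in the methods and 11 weeks in the labels, the knockout line had been backcrossed for 10 generations, and an unstressed Fkbp5-/- group was not analysed here. By the methods the brains were rinsed in cold saline after removal, and perfusion is not mentioned.

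Hemoglobin is a tetramer of alpha-globin and beta-globin chains that carries oxygen in red blood cells, and its genes are transcribed at very high levels in red cell precursors. Young red cells in the circulation still hold globin RNA, so globin reads in a solid tissue are widely used as a sign of residual blood. Alas2 encodes the erythroid form of the enzyme that starts heme synthesis. Adult mice have a pair of alpha-globin genes, and the adult beta-globin genes come in haplotypes: Hbb-bs and Hbb-bt are the names for the single haplotype that C57BL/6 mice are known for, and Hbb-b1 and Hbb-b2, the beta-major and beta-minor genes, are the names for the diffuse haplotype.

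The sequences show how little separates the genes within each pair, which bears on how reads are divided between them. In the GENCODE M21 annotation of GRCm38, the coding sequences of Hba-a1 and Hba-a2, 429 bases each, differed at 1 base, C381T counted from 1 at the first coding base and written from Hba-a1 to Hba-a2. Those of Hbb-bs and Hbb-bt, 444 bases each, also differed at 1 base, C417T from Hbb-bs to Hbb-bt. The 41 bases around each difference are printed with the differing base in capitals.
Hba-a1 (chr11:32284323-32284363, + strand): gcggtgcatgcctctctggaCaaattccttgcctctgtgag
Hba-a2 (chr11:32297140-32297180, + strand): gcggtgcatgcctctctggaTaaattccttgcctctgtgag
Hbb-bs (chr7:103826672-103826712, - strand): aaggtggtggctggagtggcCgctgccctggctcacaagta
Hbb-bt (chr7:103812663-103812703, - strand): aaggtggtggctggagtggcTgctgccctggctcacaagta
No sequence of Hbb-b1 or Hbb-b2 was used here. How the authors' counting treated a read that fitted more than 1 gene is not stated, so the values of single genes within the alpha-globin and beta-globin groups are uncertain, and sums over each group were used wherever possible.

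The 250 bases before the RefSeq gene start are shown for Hba-a2, Hbb-bs and Alas2 as examples of an alpha-globin, a beta-globin and the heme enzyme gene. Capitals mark 4 motifs, searched on both strands. They are CACCC, the core letters read by Klf1 and related factors. CCAAT is the site of the CCAAT-binding factors. AGATAA is 1 of the forms of the site read by Gata1 and its relatives, and other forms were not searched. ATATAA is a form of the TATA box. Coordinates are those of GRCm38.p6.
Hba-a2 (chr11:32296242-32296491, + strand): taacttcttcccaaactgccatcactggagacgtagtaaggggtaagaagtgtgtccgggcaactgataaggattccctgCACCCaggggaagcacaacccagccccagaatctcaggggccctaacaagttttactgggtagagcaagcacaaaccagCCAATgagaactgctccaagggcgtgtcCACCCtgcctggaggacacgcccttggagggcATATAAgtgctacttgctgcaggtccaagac
Hbb-bs (chr7:103827929-103828178, - strand): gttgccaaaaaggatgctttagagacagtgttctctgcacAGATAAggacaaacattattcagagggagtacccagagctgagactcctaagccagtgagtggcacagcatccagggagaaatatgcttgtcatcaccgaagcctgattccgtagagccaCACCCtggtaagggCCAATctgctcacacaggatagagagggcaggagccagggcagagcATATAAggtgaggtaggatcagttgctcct
Alas2 (chrX:150547167-150547416, + strand): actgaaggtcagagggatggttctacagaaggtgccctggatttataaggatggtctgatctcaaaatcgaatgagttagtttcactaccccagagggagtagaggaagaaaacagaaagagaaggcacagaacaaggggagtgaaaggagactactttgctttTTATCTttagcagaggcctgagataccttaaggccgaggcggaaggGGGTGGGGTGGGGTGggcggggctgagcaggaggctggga
The Hba-a2 promoter held all but these letters of the Gata1 form, the Hbb-bs promoter held all 4, and the Alas2 promoter held the Klf1 motif and the Gata1 form. Of 32851 mouse promoter windows of the same length in the RefSeq table, 52.0% held the Klf1 motif, 33.8% the CCAAT motif, 9.99% this Gata1 form and 9.10% the TATA form. The RefSeq windows of Hba-a1 and Hba-a2, which run on past the gene start, were identical over the 297 bases that they share when aligned 3 bases apart. A match of letters is a description and shows no binding.

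The targeted gene Fkbp5 was measured at 7.61, 6.46 and 7.28 FPKM in CT, 9.83, 9.47 and 10.3 in WT_ST and 3.59, 4.69 and 4.45 in KO_ST, so the KO_ST mice were lowest, with reads still listed on the gene. FPKM is the number of sequenced fragments per kilobase of transcript, scaled to the mapped total, which allows levels to be compared between genes. Reads on genes numbered 43778471 in the shallowest library and 61150128 in the deepest. The 10 cortical neuron markers summed to between 3095 and 3770 FPKM.

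Globin RNA was present in the mPFC of every mouse, and its amount differed more between mice than between groups. The 5 adult globin genes summed to 97.0, 214 and 948 FPKM in CT 1, 2 and 3. In WT_ST they summed to 213, 190 and 611, and in KO_ST to 210, 322 and 210. CT 3 and WT_ST 3 stood above all other mice, CT 1 below them, and the other 6 mice lay between 190 and 322, so the groups overlapped. The highest mouse was 9.77 times the lowest. As a share of the reads on genes, globin took 0.00595% in CT 1 (95% exact binomial interval 0.00576 to 0.00614) and 0.0585% in CT 3 (0.0579 to 0.0592). These intervals cover counting error only, and they are far narrower than the spread between mice. In bulk tissue, fewer red cells and less globin RNA per red cell cannot be told apart.

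**Figure D1:**
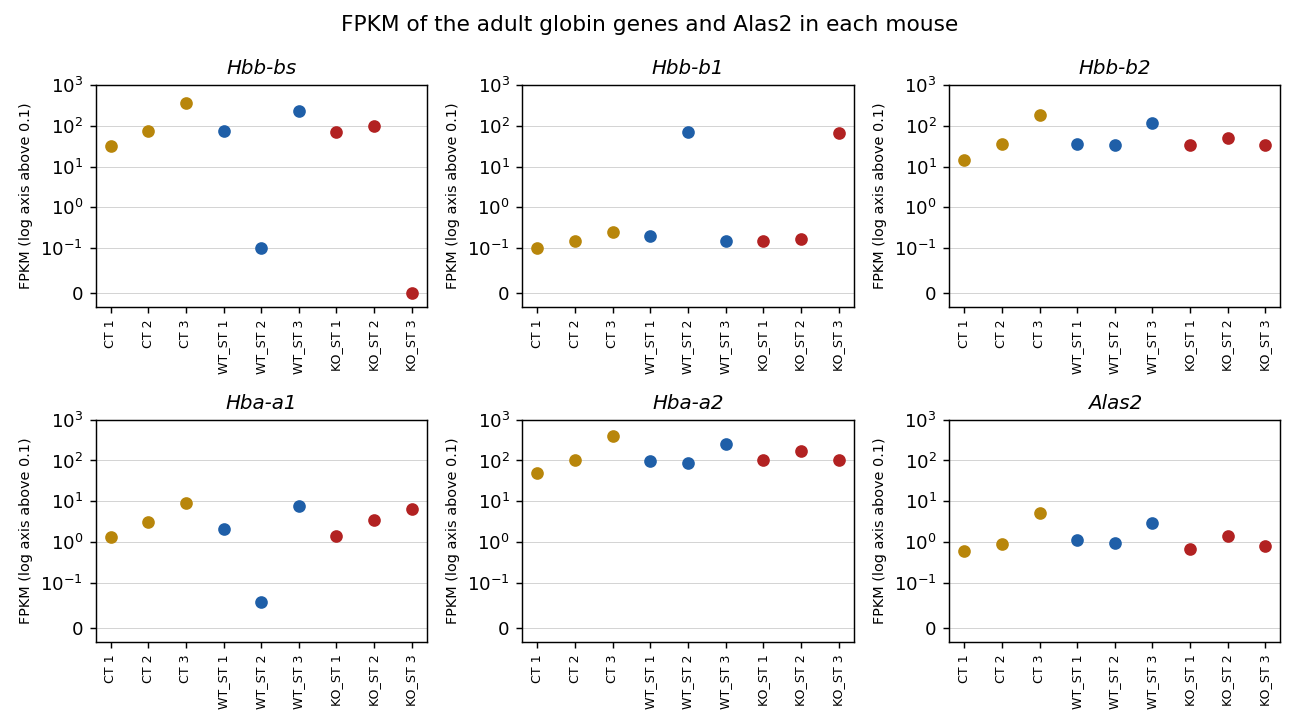
FPKM of the 6 genes in each of the 9 mice, on a log axis that is linear below 0.1, with CT in yellow, WT_ST in blue and KO_ST in red. Hbb-b2, Hba-a2 and Alas2 peaked in CT 3, while Hbb-bs was near or at 0 only in WT_ST 2 and KO_ST 3, the mice in which Hbb-b1 reached 72.0 and 67.7 FPKM.

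Among the beta-globin genes, Hbb-bs carried the major part in 7 mice and Hbb-b1 in 2. Hbb-bs was measured at 32.1, 73.6 and 359 FPKM in CT, at 76.0, 0.1004 and 229 in WT_ST, and at 71.0, 99.9 and 0 in KO_ST. Hbb-b1 was measured at 0.1004, 0.149 and 0.247 in CT, 0.198, 72.0 and 0.151 in WT_ST, and 0.146, 0.168 and 67.7 in KO_ST. In every mouse nearly all reads of the pair lay on 1 gene. That gene was Hbb-b1 in WT_ST 2 and KO_ST 3, which belong to different groups and genotypes, and Hbb-bs in the other mice. Of the reads on the pair, Hbb-b1 took between 0.0697% and 0.311% in the 7 other mice. It took 99.8% in WT_ST 2, where 2250 reads fell on Hbb-b1 and 4 on Hbb-bs (95% exact binomial interval 99.5 to 99.95). In KO_ST 3, 2240 reads fell on Hbb-b1 and 0 on Hbb-bs, and if a count of 0 is read as at most 3 reads this allows an Hbb-bs share of up to 0.134%.

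Added together, Hbb-bs and Hbb-b1 behaved as 1 measure. Their sum was 72.1 FPKM in WT_ST 2 and 67.7 in KO_ST 3, beside 32.2 to 359 in the other mice. Hbb-b2, the minor adult chain, was measured at 14.7, 35.8 and 179 FPKM in CT, 36.6, 33.6 and 115 in WT_ST, and 33.7, 49.5 and 33.3 in KO_ST. It followed the sum of the major genes closely whichever of them carried the reads, and made up 31.4% to 33.4% of all beta-globin FPKM (mean 32.6% ± 0.686, SD, n = 9). In WT_ST 2 and KO_ST 3 its share was 31.8% and 33.0%, within the range of the other mice. Hbb-bt, the partner of Hbb-bs in the single haplotype, held 0 to 19 reads per mouse and at most 0.601 FPKM. Adult beta-globin reads outside Hbb-bs and Hbb-b1 were thus nearly all listed under Hbb-b2, a gene name of the diffuse haplotype, in mice labelled C57BL/6. The haplotype of the mice and the division of reads between these gene models were not tested.

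**Figure D2:**
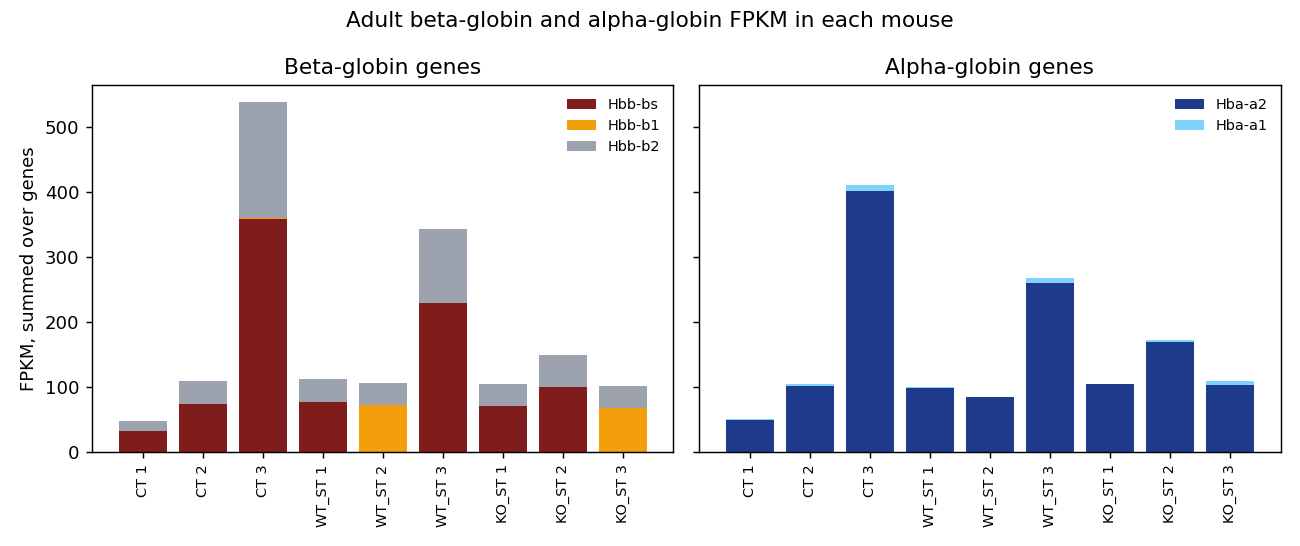
Stacked FPKM of the beta-globin genes (left) and the alpha-globin genes (right) in each mouse. Hbb-b1 takes the place of Hbb-bs in WT_ST 2 and KO_ST 3 and Hbb-b2 keeps 31.4% to 33.4% of each beta-globin bar.

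Alpha-globin reads were listed almost entirely under Hba-a2. Its FPKM was 48.8, 102 and 401 in CT, 97.9, 84.7 and 260 in WT_ST, and 104, 169 and 103 in KO_ST. Hba-a1 was measured at 1.33, 3.16 and 9.31 in CT, 2.14, 0.0573 and 7.49 in WT_ST, and 1.44, 3.42 and 6.58 in KO_ST, on 2 to 261 reads. Hba-a1 made up 1.37% to 3.01% of alpha-globin FPKM in 7 mice, with 0.0676% in WT_ST 2 and 6.02% in KO_ST 3. The lowest and the highest Hba-a1 shares were therefore in the same mice that had Hbb-b1 in place of Hbb-bs. The deposited transcript field of each alpha-globin gene lists an entry marked as a duplicate, and given the 1-base difference printed above, the division between Hba-a1 and Hba-a2 is uncertain.

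The alpha-globin and beta-globin sums rose together. Over the 9 mice Pearson's r of their log2(FPKM + 1) values was 0.98 and Spearman's rho 0.72, and r was 0.94 without CT 3 and WT_ST 3, the mice farthest from the median. Taken as deviations from the group means, r was 0.996. These correlations describe genes measured in the same libraries and chosen with their values known, and carry no p. The alpha to beta ratio, alpha-globin FPKM over beta-globin FPKM, averaged 0.943 ± 0.144 (SD, n = 9). It was 1.07, 0.957 and 0.762 in CT, 0.887, 0.802 and 0.778 in WT_ST, and 1.003, 1.15 and 1.08 in KO_ST. All KO_ST mice lay above all WT_ST mice (1.08 ± 0.0756 against 0.822 ± 0.0576, SD, n = 3 each), and CT overlapped with both. On read counts in place of FPKM the ratio was 0.887 to 1.02 in KO_ST and 0.688 to 0.785 in WT_ST, again without overlap. The lowest ratios were in CT 3 and WT_ST 3, the mice with the most globin RNA. No test of this ratio was made, since it was part of how the genes were chosen, and an exact permutation test of 3 mice against 3 could not go below 0.10.

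**Figure D3:**
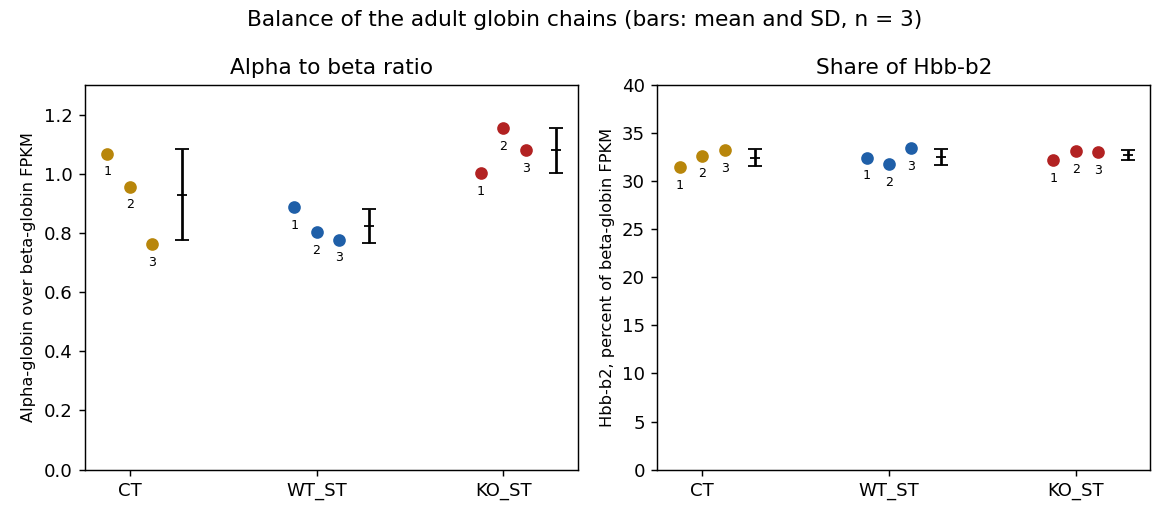
Alpha to beta ratio (left) and the share of Hbb-b2 in beta-globin FPKM (right) by group, with points for mice numbered by replicate and bars for the mean and SD (n = 3). The KO_ST ratios, 1.003 to 1.15, lie above those of WT_ST, 0.778 to 0.887, while the Hbb-b2 share stays between 31.4% and 33.4%.

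Alas2 followed the globin genes at a far lower level. It was measured at 0.610, 0.900 and 5.23 FPKM in CT, 1.12, 0.928 and 3.01 in WT_ST, and 0.659, 1.37 and 0.784 in KO_ST, on 59 to 517 reads. The mice with the most globin, CT 3 and WT_ST 3, also had the most Alas2. Against summed globin r was 0.95 and rho 0.87, and r was 0.76 without those mice. Per 100 FPKM of globin, Alas2 was at 0.420 to 0.629 in CT, 0.487 to 0.525 in WT_ST and 0.314 to 0.425 in KO_ST, so that KO_ST and WT_ST did not overlap.

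The embryonic globin genes were not detected or nearly so. Hbb-bh1, Hbb-bh2 and Hba-x, which serve the embryo, had no reads in any mouse, where a count of 0 allows up to 3 reads per library. Hbb-y, another embryonic beta-like gene, had 6 reads each in CT 1 and WT_ST 2 and none in the others.

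Differences between groups were tested for every gene with a mean of at least 30 reads, 14370 in all, by limma's moderated test on quantile-normalized log2(FPKM + 1). A differentially expressed gene (DEG) was 1 that changed by more than 1.2-fold at an unadjusted p under 0.05. All 6 genes passed the read filter, and none was a DEG in any comparison by limma, where none had an unadjusted p under 0.05 or an adjusted p under 0.05. The share of all tested genes that were DEGs was 2.47% for WT_ST against CT, 3.56% for KO_ST against CT and 2.0% for KO_ST against WT_ST. With edgeR's quasi-likelihood test on read counts, 1 of the 6, Hbb-b1, had an unadjusted p under 0.05 in WT_ST against CT and in KO_ST against CT, with adjusted p of 0.66 and 0.52, and each time 1 mouse of 3 carried the difference. DESeq2 gave no p for Hbb-b1 and called none of the other 5 genes.

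The limma differences of Hbb-bs and Hbb-b1 were wide and turned on WT_ST 2 and KO_ST 3. Against CT, the log2 difference of Hbb-b1 was 2.01 ± 1.49 (SE) in WT_ST and 1.97 ± 1.47 in KO_ST, with 1 mouse of 3 high in each. That of Hbb-bs was -1.83 ± 1.92 in WT_ST and -2.30 ± 1.77 in KO_ST, with 1 mouse of 3 low in each. Between KO_ST and WT_ST the differences were -0.04 ± 2.08 for Hbb-b1 and -0.47 ± 2.37 for Hbb-bs. Adjusted p from limma for this pair lay between 0.69 and 0.998. For WT_ST minus CT the log2 difference was 0.05 ± 0.77 (SE) for Hba-a2, 0.20 ± 0.87 for Hbb-b2, -0.58 ± 0.80 for Hba-a1 and -0.05 ± 0.52 for Alas2, with Benjamini-Hochberg adjusted p from limma of 0.87 to 0.99. For KO_ST minus CT it was -0.05 ± 0.68 for Hba-a2, -0.24 ± 0.77 for Hbb-b2, -0.07 ± 0.58 for Hba-a1 and -0.45 ± 0.47 for Alas2. For KO_ST minus WT_ST it was -0.10 ± 0.43, -0.44 ± 0.45, 0.52 ± 0.73 and -0.41 ± 0.28 for the same genes. Over the 6 tested genes of the globin list, the 5 adult genes and Hbq1a, the median log2 difference was -0.27, -0.06 and -0.07 in the 3 comparisons, beside 0.0034, 0.0024 and -0.0015 over all tested genes. By limma none of the differences of the adult genes and Alas2 passed the threshold, the groups overlapped for each of these genes in every comparison, and the errors are too wide to show that the groups had the same amount of globin RNA.

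Single libraries, CT 3 and WT_ST 3, set the direction of the group means. Summed globin FPKM averaged 420 ± 461 in CT, 338 ± 236 in WT_ST and 247 ± 64.6 in KO_ST (SD, n = 3 each). On the log2 scale the ratio of group means was -0.31 for WT_ST over CT and 1.12 without CT 3. For KO_ST over CT it was -0.76 and 0.67 without CT 3. For KO_ST over WT_ST it was -0.45 and 0.29 without WT_ST 3.

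Other red cell genes had few reads, and most were highest in the mouse with the most globin. Of the 18 genes listed as red cell markers, 17 were found. Besides Alas2 these were 16, of which 4 passed the read filter. CT 3 was the highest mouse for 14 of the 16, while 18.1% of all genes with reads were highest in CT 3. Slc4a1, the band 3 anion exchanger of the red cell membrane, was measured at 0.028, 0.168 and 1.14 FPKM in CT, 0.0349, 0.0177 and 0.143 in WT_ST, and 0.0681, 0.0375 and 0.0335 in KO_ST. With Alas2 counted, 12, 11 and 17 of the 17 genes had reads in CT, 5, 8 and 10 in WT_ST, and 8, 6 and 10 in KO_ST. All CT mice thus lay above all others in this count, including CT 1, the mouse with the least globin RNA. CT 1 and CT 2 were also the deepest libraries, and the part of depth in the count was not tested. Epor, the erythropoietin receptor, was the highest of the list by mean FPKM. Leaving out Alas2 and Epor, the red cell genes summed to 0.938, 1.18 and 4.58 FPKM in CT and 0.410, 0.700 and 0.752 in WT_ST. In KO_ST they summed to 0.834, 0.498 and 1.03. By this sum CT and WT_ST did not overlap, KO_ST overlapped with both, and WT_ST 3, the other mouse rich in globin, did not stand apart. Over all 17 genes the sum was 3.76 to 12.3 FPKM in CT and 3.95 to 6.36 in WT_ST, with overlap. Epor went the other way, 0.22 higher on the log2 scale in WT_ST than in CT by limma, and was not a DEG.

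White blood cell genes separated the mice rich in globin. S100a8 and S100a9, the calcium-binding proteins that fill neutrophils, summed to 4.17, 8.69 and 61.8 FPKM in CT, 2.43, 5.03 and 5.55 in WT_ST, and 5.18, 2.39 and 9.44 in KO_ST. CT 3 was thus high in both globin and neutrophil RNA, and WT_ST 3 was high in globin without high neutrophil RNA. The part of white cells in the globin level of CT 3 was not tested. Of the 17 neutrophil genes 15 were highest in CT 3, among them Ngp, a neutrophil granule gene, at 8.98 FPKM beside 0.0685 to 1.94 in the other mice. Against summed globin the S100a8 and S100a9 sum had r = 0.62 and rho = 0.35 over the 9 mice, and r was -0.15 without CT 3 and WT_ST 3, so the relation rests on those mice. The 17 lymphocyte genes summed to 1.10 to 2.49 FPKM, highest in CT 3, and 16 of them had reads, all but the T cell receptor gene Cd3g. The 6 monocyte genes summed to 0.704 to 4.46 FPKM, highest in CT 3.

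**Figure D4:**
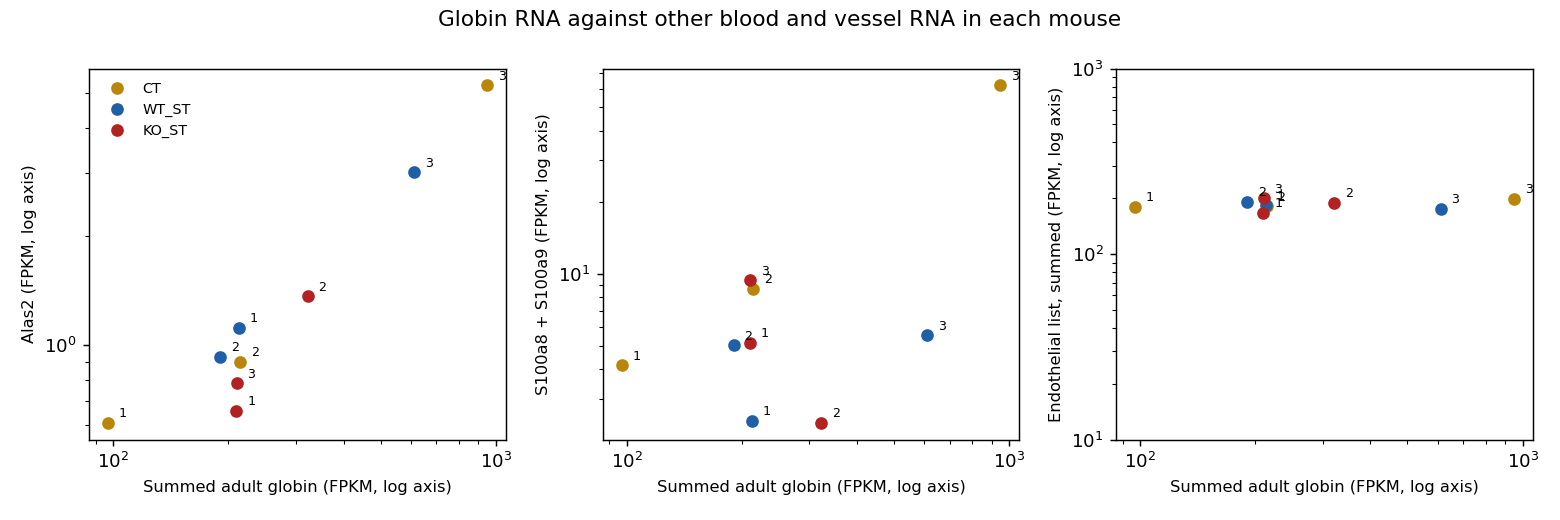
Alas2 (left), the neutrophil genes S100a8 and S100a9 (middle) and the 17 endothelial genes (right) against summed adult globin FPKM, all axes on a log scale, points numbered by replicate. Alas2 rises with globin, the neutrophil genes are high in CT 3 only at 61.8 FPKM, and the endothelial sum stays between 167 and 200 FPKM.

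Vessel RNA varied far less between mice than globin RNA. The 17 endothelial cell genes summed to 180, 181 and 199 FPKM in CT, 183, 192 and 176 in WT_ST, and 167, 190 and 200 in KO_ST. The highest mouse was 1.2 times the lowest, beside 9.77 times for globin, and r between the sums was 0.26 (rho = 0.17). Mural cell genes summed to 33.5 to 54.5, choroid plexus genes to 1.09 to 1.78 and meningeal genes to 16.5 to 29.7 FPKM, and none of these 3 sums was highest in CT 3 or WT_ST 3. Platelet genes summed to between 7.05 and 7.92 FPKM in 5 mice, 24.3 in WT_ST 3, and 90.2 to 100.3 in CT 3, KO_ST 1 and KO_ST 3. Most of the high values came from Gp1bb, a platelet receptor subunit, which ranged from 3.24 to 95.9 FPKM, while 5 of the 13 platelet genes were highest in CT 3. The platelet chemokine gene Pf4 lay between 0.190 and 0.933 FPKM, highest in KO_ST 2, and Ppbp, another, was at 0.744 in CT 3 and at most 0.131 in the others.

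Genes of heme handling that cortex itself expresses had nearly level sums across mice. The 14 heme synthesis genes measured summed to 180 to 204 FPKM and the 9 heme breakdown and scavenging genes to 171 to 185. Alas1, the ubiquitous counterpart of Alas2, was measured at 20.2 to 24.5 FPKM, above Alas2 in every mouse. Fech, the last enzyme of heme synthesis, was at 12.5 FPKM in CT 1 and at 21.4 to 24.5 in the others. Hmox1, the inducible heme oxygenase, was a DEG in KO_ST against WT_ST, 0.28 ± 0.07 (SE) higher on the log2 scale (adjusted p = 0.64, limma). Hp, which encodes the hemoglobin-binding plasma protein haptoglobin, was at 0.962 FPKM in CT 3 and at most 0.158 in the others. Hpx, the gene of the heme-binding plasma protein hemopexin, was at 0.132 in CT 3 and highest in KO_ST 3 at 0.248.

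The theta-globins, alpha-like genes of the same cluster with no settled role in oxygen transport, did not follow the adult globins. Hbq1a was measured at 3.78, 4.08 and 1.41 FPKM in CT, 1.73, 0.853 and 1.36 in WT_ST, and 2.62, 4.07 and 3.66 in KO_ST. The library with the most adult globin, CT 3, had the least Hbq1a of the CT mice. Hbq1a was a DEG in KO_ST against WT_ST, 0.95 ± 0.18 (SE) higher on the log2 scale without overlap (adjusted p = 0.30 by limma, 0.51 by edgeR and 0.017 by DESeq2). In WT_ST against CT it was a DEG at -0.73 ± 0.30 with overlap (adjusted p = 0.64, limma), and leaving out 1 mouse ended this call for 4 of the 6 mice: CT 1, CT 2, WT_ST 2 and WT_ST 3. This call also ended without the read filter. Hbq1b, on 10 to 52 reads, fell under the read filter, and it correlated with Hbq1a at r = 0.82 and rho = 0.82 over the 9 mice, or at r = 0.70 without WT_ST 2 and WT_ST 3.

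**Figure D5:**
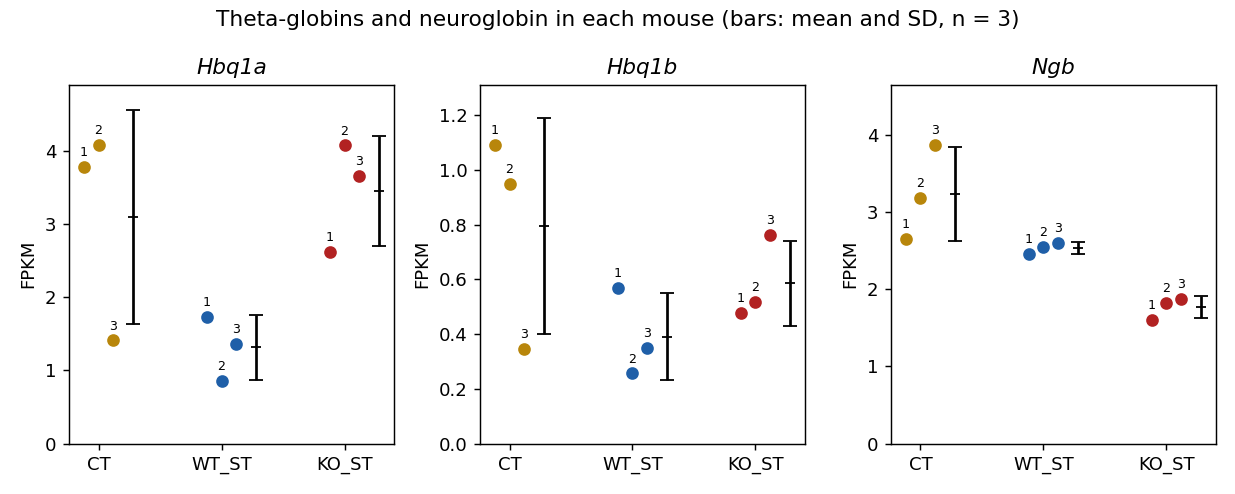
FPKM of the theta-globins Hbq1a and Hbq1b and of neuroglobin (Ngb) by group, with points for mice numbered by replicate and bars for the mean and SD (n = 3). All KO_ST mice lie above all WT_ST mice for Hbq1a, and below all other mice for Ngb at 1.61 to 1.87 FPKM.

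Neuroglobin (Ngb), the oxygen-binding globin of neurons, was lowest in KO_ST. Its FPKM was 2.65, 3.18 and 3.87 in CT, 2.46, 2.55 and 2.60 in WT_ST, and 1.61, 1.82 and 1.87 in KO_ST. It was a DEG in KO_ST against CT at -0.57 ± 0.11 (SE) and against WT_ST at -0.35 ± 0.06 on the log2 scale, with adjusted p of 0.33 and 0.27 by limma. Cytoglobin (Cygb), a globin of fibroblasts and pericytes, was also lowest in KO_ST, at 17.9 to 19.6 FPKM beside 20.1 to 23.0 in all other mice. Its log2 difference in KO_ST was -0.17 against CT and -0.15 against WT_ST (adjusted p of 0.50 and 0.78, limma). These fall short of the fold threshold, and Cygb was not a DEG in any comparison.

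Some other genes of the blood and vessel lists were DEGs, and by limma none had an adjusted p under 0.05. Of 17 tested endothelial genes, 1 was higher and 1 lower in WT_ST against CT. In KO_ST 2 were lower against CT and 1 against WT_ST. Of 8 tested neutrophil genes, 1 was lower in each comparison. Every other list, taken singly, held at most 1 DEG in each comparison. Of all tested genes 2.47%, 3.56% and 2.0% were DEGs, and a difference of the lists from these shares was not tested. In WT_ST against CT, Tal1, an erythroid and vascular transcription factor, was lower by -0.32 on the log2 scale, and DESeq2 gave it an adjusted p of 0.037 where edgeR gave 0.56. Also lower were Prtn3, a neutrophil protease, at -0.37 and Cldn5, an endothelial tight junction gene, at -0.32, and Vwf, the endothelial von Willebrand factor, was higher at 0.31. In KO_ST against CT, Kdr, the endothelial VEGF receptor, was lower at -0.47, Cldn5 at -0.39, Csf3r, the receptor for a neutrophil growth factor, at -0.56, Col1a2, a collagen gene of the meningeal list, at -0.34, and Ube2l6, a red cell gene also found in brain, at -0.29. In KO_ST against WT_ST, Kdr was lower at -0.32 and Csf3r at -0.30, while Tagln, a smooth muscle gene, was higher at 0.35. Besides these, and Hbq1a and Hmox1 described above, no gene of the globin, red cell marker, heme, platelet, white cell, vessel or meningeal lists was a DEG by limma. Leaving out 1 mouse ended the calls of Tal1 (without CT 3), Cldn5 in WT_ST against CT (CT 2 or WT_ST 3), Col1a2 (CT 3 or KO_ST 1), Ube2l6 (CT 3, KO_ST 1 or KO_ST 3), Hmox1 (WT_ST 2 or KO_ST 1), Kdr in KO_ST against WT_ST (WT_ST 2) and Csf3r in KO_ST against WT_ST (WT_ST 2, KO_ST 1 or KO_ST 2). Vwf and Tagln each lost the call for most of the mice left out. The calls of Prtn3, Ngb, Hbq1a in KO_ST against WT_ST, and Kdr, Csf3r and Cldn5 in KO_ST against CT were kept with any 1 mouse left out.

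The genes most like alpha-globin over the 9 mice were ranked among 14363 tested genes outside the globin list. The ranking used Pearson's r of each gene's quantile-normalized log2(FPKM + 1) with that of the alpha-globin sum, which was not quantile-normalized. Tmeff2 came first at 0.95, then Isg20 at 0.94, Alas2 at 0.93, Toporsos at 0.90 and Egfem1 at 0.88, and each was highest in CT 3. Alas2 and Isg20, a nuclease gene also listed for red cells, varied most, 8.58-fold and 5.28-fold between the lowest and the highest mouse. Tmeff2 varied 1.19-fold. Without CT 3 and WT_ST 3 the r of the 5 genes lay between 0.67 and 0.86. Isg20 was measured at 0.243 to 1.28 FPKM. Without quantile normalization its r with summed globin was 0.95, or 0.88 without CT 3 and WT_ST 3. That sum includes alpha-globin, by which Isg20 was ranked, so this r is no separate evidence.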

How the data were processed

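RNA of the mPFC was sequenced by the authors as stranded paired-end mRNA libraries, 1 per mouse, and aligned to GRCm38 (mm10). The submitters' processing notes name HISAT2 2.1.0, Bowtie2 2.3.4.1 and StringTie 1.3.4d. The authors deposited read counts per gene without normalization, and FPKM, which is scaled for the length of the transcript and the number of mapped reads. The strand setting of the counting is not given in the sources used here. The genes and lists described here were chosen with earlier results of these data known.

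Groups and replicate numbers came from the sample labels. By the methods the mice came from matings of Fkbp5+/- parents and were housed in a single cage, while the labels tie no mouse to a litter, and p-values measure the spread between these samples. FPKM plus a pseudocount of 1 was log2-transformed, quantile normalized over 9 mice and tested with limma 3.58.1 in R 4.3.3 with a mean-variance trend, using the mice of the 2 groups compared and genes with a mean of at least 30 reads. Fold changes on this scale understate those of low genes. DEGs had an unadjusted p under 0.05 and a fold above 1.2, and p-values were adjusted by Benjamini-Hochberg over 14370 genes. Summed globin and the alpha to beta ratio were not tested. Read counts were also tested with edgeR 4.0.16 and DESeq2 1.42.0. Other alternatives were another pseudocount, no read filter, other fits, and each mouse left out. Named were the globin genes, listed genes that were DEGs or highest in their list, and the 5 genes most like alpha-globin, though not every gene so selected is printed. A gene of the list of red cell genes also found in brain, and the sum of that list, are not reported here. Some listed genes were named after their values were seen: Slc4a1, Ngp, S100a8, Cd3g, Pf4, Ppbp, Alas1, Hp and Hpx. On simulated counts for WT_ST against CT, with 200 of 14370 genes changed by a fold of 2, limma called 91.5% of the changed and 2.36% of the unchanged genes. Any 2 libraries differed by a chi-square of at least 18.7 per degree of freedom. Positions and promoters came from RefSeq (GRCm38.p6) and coding sequences from GENCODE M21. Plots were made in Python 3.11.15 (matplotlib 3.10.9).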

Additional observations from a re-analysis of the deposited data

How the results depend on the processing

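DEG counts moved with the test, the pseudocount and single mice. For WT_ST against CT 355 DEGs by limma became 535 with edgeR, 552 with DESeq2 and 544 with a pseudocount of 0.1, and ranged from 277 to 542 with a mouse left out, the highest without CT 3. For KO_ST against WT_ST 287 became 426 with edgeR, 410 with DESeq2 and 445 with a pseudocount of 0.1, and ranged from 245 to 477, the highest without KO_ST 3. For KO_ST against CT 512 became 665 with edgeR, 738 with DESeq2, 720 with a pseudocount of 0.1, and 410 to 734 with a mouse left out. The share of DEGs that were higher in WT_ST than in CT was 46.8% by limma, 33.1% by edgeR, 34.2% by DESeq2 and 34.1% without quantile normalization. For KO_ST against CT it was 43.2% by limma and 28.5% without quantile normalization. With summed globin as a covariate, an alternative chosen after seeing the data, the 3 counts were 402, 520 and 310.

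Of 11 tested globin and red cell genes, beside 2.47%, 3.56% and 2.0% of all tested genes in the 3 comparisons by limma, DEGs numbered 2 for WT_ST against CT by limma (Tal1 and Hbq1a), 3 with edgeR (also Hbb-b1), 3 with DESeq2 (also Ermap), 3 with a pseudocount of 0.1, 1 without the read filter and 1 to 2 with a mouse left out. For KO_ST against CT they numbered 0 by limma, 2 with edgeR (Hbb-b1 and Slc4a1), 1 with DESeq2 (Slc4a1) and 0 to 1 with a mouse left out. For KO_ST against WT_ST they numbered 1 by limma (Hbq1a) and 2 with edgeR or DESeq2 (Hbq1a and Tal1). The log2 ratio of summed globin ranged, with a mouse left out, from -1.06 to 1.12 for WT_ST over CT, from -1.23 to 0.67 for KO_ST over CT and from -0.73 to 0.29 for KO_ST over WT_ST. The alpha to beta ratio over all mice stayed between 0.836 and 0.966 under every alternative run.

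The direction of single globin genes was not stable. For WT_ST minus CT, Hbb-b2 was -0.29 and Hba-a2 -0.30 with edgeR, -0.29 and -0.30 with DESeq2, and Alas2 was 0.059 with a pseudocount of 0.1. With a mouse left out, the WT_ST minus CT difference ranged from -0.59 to 1.14 for Hbb-b2, -0.63 to 0.87 for Hba-a2, -1.32 to 0.18 for Hba-a1 and -0.41 to 0.56 for Alas2. The KO_ST minus CT difference ranged from -1.03 to 0.70 for Hbb-b2, -0.72 to 0.78 for Hba-a2, -0.56 to 0.50 for Hba-a1, -0.82 to 0.15 for Alas2 and -0.14 to 0.42 for Hbq1a. The KO_ST minus WT_ST difference ranged from -0.75 to 0.13 for Hbb-b2, -0.40 to 0.43 for Hba-a2 and -0.25 to 1.25 for Hba-a1. The cause was not tested.

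Same-numbered mice of different groups deviated from their group means with a mean correlation of -0.0096 over 9 pairs. These correlations ranged from -0.256 to 0.233, with 2 above 0.1. For differently numbered mice the mean was 0.0047 over 18 pairs, from -0.268 to 0.187, with 6 above 0.1. Same-numbered mice were thus not more alike on average, but so few pairs cannot decide whether the numbers pair the mice. With a replicate block the DEG counts were 399, 562 and 279, and the limma calls of Vwf in WT_ST against CT and of Csf3r and Tagln in KO_ST against WT_ST were lost.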
